A study of Mus musculus with 6 samples.

Results

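NRF2, encoded by Nfe2l2, its inhibitor KEAP1 and 8 of the antioxidant and metabolic target genes of NRF2 were followed in DEN-induced mouse liver tumors with and without the orphan nuclear receptor NR2E3. The genes were chosen by symbol, as the rows of the raw count table named Nfe2l2, Keap1, Nqo1, Gclc, Gclm, Hmox1, Txnrd1, Srxn1, Slc7a11 and G6pdx, and all 10 were found among the 24063 genes listed. RNA-seq libraries were made from liver tumors of male C57BL/6 mice, 3 of them WT (NR2E3+/+) and 3 Nr2e3-/- (NR2E3-/-), with 1 library per tumor and no untreated liver or non-tumor tissue among the 6. All mice of both genotypes had received diethylnitrosamine (DEN), a carcinogen activated in hepatocytes, at 25 mg per kg by intraperitoneal injection at 15 days of age, and the tumors are those of the 24-week time point. The genotype labels name no tissue to which the knockout was limited. For its DEN liver injury work the study bought WT mice from Jackson Laboratory, and it cites an earlier report for how the knockout was made. Whether the WT mice of the tumor experiment had that source, or shared litters with knockout mice, is not given in the sources used here. The study's methods count as many mice as libraries in each genotype, though the labels do not tie a library to a mouse.

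NRF2 is a transcription factor that is made continuously and, in unstressed cells, is bound by KEAP1 and handed to the CUL3 ubiquitin ligase for degradation. Oxidants and electrophiles modify cysteines of KEAP1, NRF2 then escapes degradation, pairs with a small MAF protein and binds antioxidant response elements near genes of glutathione synthesis, thioredoxin function, NADPH supply, heme breakdown and detoxification. In liver the pathway handles reactive metabolites, and it is known to be active in many liver tumors. NRF2 activity is set mainly at the protein level, so the mRNA of Nfe2l2 is not a measure of it.

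The DNA before the transcription start is shown for Srxn1 and Txnrd1, 2 of the target genes that were high in some Nr2e3-/- tumors, and for Gclm and Nqo1, 2 targets that were not. RefSeq sequences (GRCm38.p6) were at hand for 8 of the 10 genes. They were not at hand for Gclc and Hmox1. The 250 bases before each start are printed 5′ to 3′ on the strand of the gene, with matches in capitals. The motifs searched on both strands were TGACNNNGC, the core of the antioxidant response element, and TGANTCA, which covers the AP-1 element. They can overlap, since a TGAC start followed by TCA and GC holds both. Srxn1 is at chr2:152105274-152105523 (plus strand), Txnrd1 at chr10:82858956-82859205 (plus strand, the one of its 3 listed starts with a match), Gclm at chr3:122245307-122245556 (plus strand) and Nqo1 at chr8:107403206-107403455 (minus strand).
Srxn1: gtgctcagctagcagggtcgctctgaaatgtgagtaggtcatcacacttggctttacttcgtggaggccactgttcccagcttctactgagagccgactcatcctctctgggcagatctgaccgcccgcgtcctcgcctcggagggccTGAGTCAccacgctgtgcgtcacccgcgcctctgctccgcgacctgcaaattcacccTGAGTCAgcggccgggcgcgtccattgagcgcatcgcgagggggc
Txnrd1: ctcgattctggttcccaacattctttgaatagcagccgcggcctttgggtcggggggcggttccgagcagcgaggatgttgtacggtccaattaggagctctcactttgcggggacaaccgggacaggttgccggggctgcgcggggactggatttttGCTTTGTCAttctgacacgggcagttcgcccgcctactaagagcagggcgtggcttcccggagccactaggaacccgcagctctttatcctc
Gclm: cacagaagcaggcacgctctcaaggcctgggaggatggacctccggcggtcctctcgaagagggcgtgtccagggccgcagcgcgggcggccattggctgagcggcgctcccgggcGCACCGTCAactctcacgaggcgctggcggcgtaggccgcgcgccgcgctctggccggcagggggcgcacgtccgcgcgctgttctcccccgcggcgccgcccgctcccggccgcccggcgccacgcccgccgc
Nqo1: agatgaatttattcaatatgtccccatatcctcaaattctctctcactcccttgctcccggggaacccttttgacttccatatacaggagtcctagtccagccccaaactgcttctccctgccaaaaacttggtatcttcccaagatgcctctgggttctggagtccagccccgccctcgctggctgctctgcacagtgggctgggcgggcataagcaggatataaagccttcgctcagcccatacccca
The Srxn1 window held TGANTCA at 2 places, 102 and 45 bases before the start, and no TGACNNNGC. The Txnrd1 window held TGACNNNGC on the minus strand 92 bases before the start and the Gclm window 134 bases before it, while the Nqo1 window held neither motif. Windows of Nfe2l2 and G6pdx held 1 TGACNNNGC each, and those of Keap1 and Slc7a11 held neither. Of all 32851 windows of 250 bases, 10.2% held TGACNNNGC and 6.75% held TGANTCA. These are matches of letters, and response elements further from the start lie outside the windows.

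The WT libraries held 25250090 to 28690279 counts and the Nr2e3-/- libraries 15376261 to 28336305. Nr2e3 had 0 counts in all 6 libraries, which allows up to 0.105 to 0.195 CPM (counts scaled to a library total of 1000000) depending on the library (3 counts, counting error only), so the genotype labels could not be checked from it. Hepatocyte markers were abundant in every library, Alb alone at 84013 to 130236 CPM, as the liver label would have it. Nr2e3-/- replicate 1, the library with the fewest counts, stood apart from its group. Its root mean square difference of log2 CPM over all genes tested was 0.506 to 0.600 against the WT libraries but 0.800 and 0.630 against Nr2e3-/- replicates 2 and 3, which differed from each other by 0.546. The WT libraries differed from each other by only 0.392 to 0.421, so replicate 1 was not one of the WT cluster either. The 10 genes, and those of the other genes named that edgeR called without this library, are therefore given with and without it. This library was singled out on these same data, and without it only replicates 2 and 3 stand for Nr2e3-/-. Leaving out the Nr2e3-/- library nearest to WT favours larger differences and smaller spread, and genes called over the whole table went from 13 to 3022. Adjusted p-values without it are therefore descriptive.

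The 10 genes did not share 1 direction between genotypes. Srxn1, Txnrd1, Gclc and Hmox1 were 1.53 to 8.80 times the highest WT library in Nr2e3-/- replicates 2 and 3, while replicate 1 was at or below the highest WT library for each of them. Nfe2l2 itself was lower in every Nr2e3-/- library than in every WT library. The groups overlapped for Keap1 and Gclm, whose log2 fold changes were 0.04 and -0.23, and for Nqo1, Slc7a11 and G6pdx, whose 2 highest libraries came from different genotypes. A two-sided quasi-likelihood test (edgeR) was run over the 13572 genes that passed its filter on low counts, which all 10 genes passed. At an adjusted p-value under 0.05, 0 of the 10 genes were called, where 0.0958% of all genes tested were. At an unadjusted p-value under 0.05, 3 of the 10 passed, Srxn1 and Txnrd1 higher and Nfe2l2 lower, against 21.5% of all genes tested (11.8% higher, 9.72% lower). WT and Nr2e3-/- libraries were fully separate for 1 of the 10, Nfe2l2, which was lower, against 26.8% of all genes tested (12.9% lower). Taken over the 10 genes, 6 of which lay above 0 and 4 below, the log2 fold changes had a median of 0.21, against 0.01 over all genes tested. With a library left out this median ran from -0.07 (Nr2e3-/- replicate 2) to 0.53 (WT replicate 1), and it was -0.03 without WT replicate 3. In other tools on all 6 libraries, DESeq2 called Srxn1 and Txnrd1 as higher (8% of its genes were called, 4.93% as higher), and limma-voom with sample quality weights called Srxn1, Txnrd1, Gclc and, lower, Nfe2l2 (17.4% of its genes, 9.48% as higher and 7.91% as lower). Without Nr2e3-/- replicate 1, edgeR called 4 of the 10, Srxn1, Txnrd1, Gclc and Hmox1, all higher, where it called 21.8% of all genes and 12.2% as higher. Leaving out any of the other 5 libraries gave 0 called genes among the 10. Those fits called only 0 to 18 genes over the whole table, so these counts say little about the 10.

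**Figure D1:**
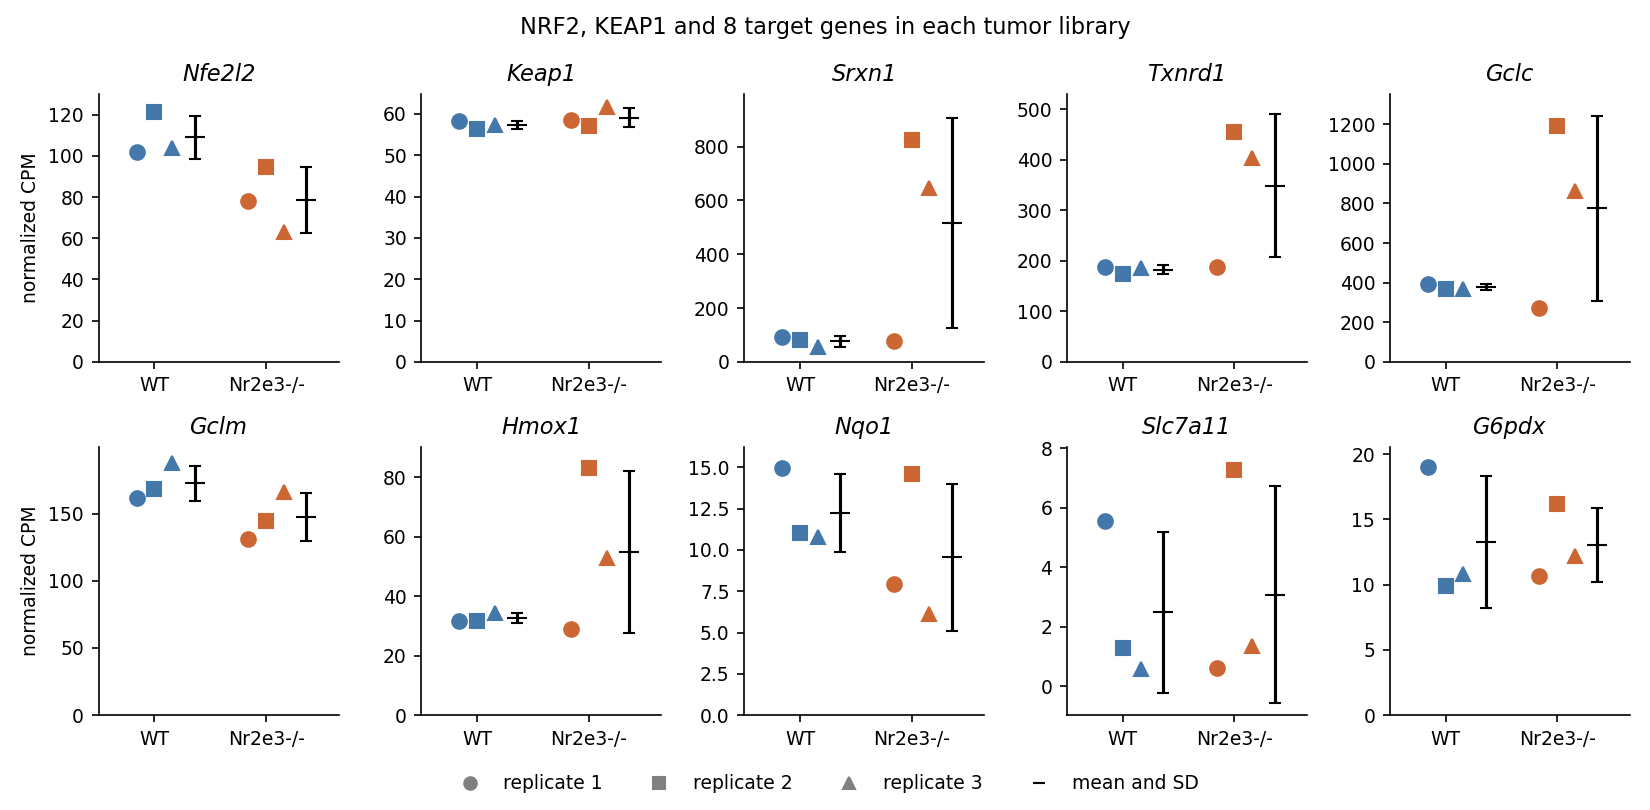
Normalized CPM (y axis) of each of the 10 genes in WT (blue) and Nr2e3-/- (orange) tumors, with 1 point per library, its shape giving the replicate number, and bars for the mean and SD of 3 libraries. In Srxn1, Txnrd1, Gclc and Hmox1 the points of Nr2e3-/- replicates 2 and 3 lie above all WT points, and that of replicate 1 lies beside or below them.

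Levels are given as normalized CPM (scaled by the TMM-normalized library total) unless stated, and log2 fold changes are Nr2e3-/- over WT from edgeR with their standard error (SE). Nfe2l2 lies on chromosome 2 of GRCm38 from 75675513 to 75704641 (minus strand, GENCODE M21) and overlaps the snRNA gene Gm24996. Its level was 102, 121 and 104 CPM in WT replicates 1 to 3 and 78.1, 94.6 and 63.1 CPM in Nr2e3-/- replicates 1 to 3. The groups did not overlap, and the lowest value was that of Nr2e3-/- replicate 3, a library in which Srxn1, Txnrd1 and Gclc were high. WT averaged 109 ± 10.5 CPM (SD, n = 3) and Nr2e3-/- 78.6 ± 15.8 CPM (SD, n = 3), for a log2 fold change of -0.47 (SE 0.16, adjusted p = 0.174 from edgeR). The exact two-sided permutation p was 0.1, the smallest that 3 against 3 allow. The log2 fold change stayed between -0.63 and -0.33 across all alternatives, and its adjusted p was between 0.0311 (limma-voom) and 0.427. Without Nr2e3-/- replicate 1 it was -0.46 (adjusted p = 0.126 from edgeR).

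Keap1, the cysteine-rich adaptor that holds NRF2 for degradation, lies on chromosome 9 from 21229730 to 21239361 (minus strand), overlapping the antisense gene Gm16754. It was the steadiest of the 10 genes. Its level was 58.3, 56.4 and 57.3 CPM in WT and 58.5, 57.2 and 61.6 CPM in Nr2e3-/- tumors. The groups overlapped, with a log2 fold change of 0.04 (SE 0.09, adjusted p = 0.792 from edgeR), which was -0.04 with upper quartile normalization. Keap1 and Gclc are on the same chromosome as Nr2e3, at 38.7 and 17.8 Mb from it.

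Srxn1 had the largest difference of the 10 genes. It encodes sulfiredoxin, which reduces overoxidized peroxiredoxins back to their working form, and lies on chromosome 2 from 152105516 to 152111376 (plus strand) with no overlapping gene in the annotation. Its level was 93.8, 80.2 and 53.6 CPM in WT and 78.3, 826 and 647 CPM in Nr2e3-/- tumors. Replicate 1 was inside the WT range, and replicates 2 and 3 were 10.9 and 8.52 times the WT mean. WT averaged 75.9 ± 20.4 CPM (SD, n = 3) and Nr2e3-/- 517 ± 390 CPM (SD, n = 3), for a log2 fold change of 2.77 (SE 0.76, adjusted p = 0.130 from edgeR). Without Nr2e3-/- replicate 1 it was 3.29 (SE 0.25, adjusted p = 0.00156 from edgeR), and without replicate 2 it was 2.26 (SE 0.74, adjusted p = 0.206 from edgeR). The promoter printed above is the one with 2 TGANTCA matches.

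Txnrd1 encodes cytosolic thioredoxin reductase, a selenoprotein that passes electrons from NADPH to thioredoxin. It lies on chromosome 10 from 82833951 to 82897712 (plus strand) and encloses Eid3 on the same strand, which had only 2 to 26 counts per library. Txnrd1 was at 188, 173 and 186 CPM in WT and 188, 455 and 402 CPM in Nr2e3-/- tumors. Replicate 1 was inside the WT range and replicates 2 and 3 were 2.49 and 2.20 times the WT mean. The log2 fold change was 0.93 (SE 0.30, adjusted p = 0.158 from edgeR) and became 1.24 (SE 0.11, adjusted p = 0.00231 from edgeR) without Nr2e3-/- replicate 1. The mitochondrial reductase gene Txnrd2 and the third family member Txnrd3 did not share this pattern, with log2 fold changes of -0.38 (SE 0.17) and -0.53 (SE 0.23), and neither passed an unadjusted p of 0.05.

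Gclc and Gclm encode the catalytic and modifier subunits of glutamate-cysteine ligase, the rate-limiting enzyme of glutathione synthesis, and the pair diverged in the same tumors. Gclc lies on chromosome 9 from 77754535 to 77794485 (plus strand) with no overlapping gene. Its level was 393, 366 and 369 CPM in WT and 271, 1192 and 863 CPM in Nr2e3-/- tumors. Replicate 1 was below all WT libraries, whereas replicates 2 and 3 were 3.17 and 2.30 times the WT mean. The log2 fold change was 1.04 (SE 0.46, adjusted p = 0.244 from edgeR), and without Nr2e3-/- replicate 1 it was 1.46 (SE 0.16, adjusted p = 0.00369 from edgeR). Without Nr2e3-/- replicate 2 it was 0.60 (SE 0.42).

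Gclm lies on chromosome 3 from 122245557 to 122270732 (plus strand) and overlaps Gm17494 and the pseudogene Gm6061. It was at 162, 168 and 187 CPM in WT and 131, 144 and 166 CPM in Nr2e3-/- tumors. The groups overlapped by 1 library, and replicates 2 and 3, high for Gclc, were not high for Gclm. The log2 fold change was -0.23 (SE 0.13, adjusted p = 0.330 from edgeR), and it was negative in every alternative, from -0.32 to -0.12. Per kb of exon, the ratio of Gclc to Gclm was 3.97, 3.55 and 3.22 in WT and 3.37, 13.5 and 8.47 in Nr2e3-/- tumors. On the log2 scale WT averaged 1.83 ± 0.15 (SD, n = 3) and Nr2e3-/- 2.86 ± 1.02 (SD, n = 3), a difference of 1.03 with an exact two-sided permutation p of 0.3. The higher ratio was that of replicates 2 and 3, and replicate 1 was inside the WT range.

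Hmox1, the inducible heme oxygenase that breaks heme into biliverdin, carbon monoxide and iron, lies on chromosome 8 from 75093621 to 75100589 (plus strand) with no overlapping gene. It was at 31.7, 31.7 and 34.5 CPM in WT and 28.9, 83.2 and 52.8 CPM in Nr2e3-/- tumors. Replicate 1 was again below all WT libraries, and replicates 2 and 3 were 2.55 and 1.62 times the WT mean. The log2 fold change was 0.76 (SE 0.34, adjusted p = 0.246 from edgeR), 1.07 without Nr2e3-/- replicate 1 (SE 0.19, adjusted p = 0.0126 from edgeR) and 0.33 without replicate 2 (SE 0.24, adjusted p = 0.465 from edgeR). Hmox2, the constitutive heme oxygenase, had a log2 fold change of -0.11 (SE 0.15).

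**Figure D2:**
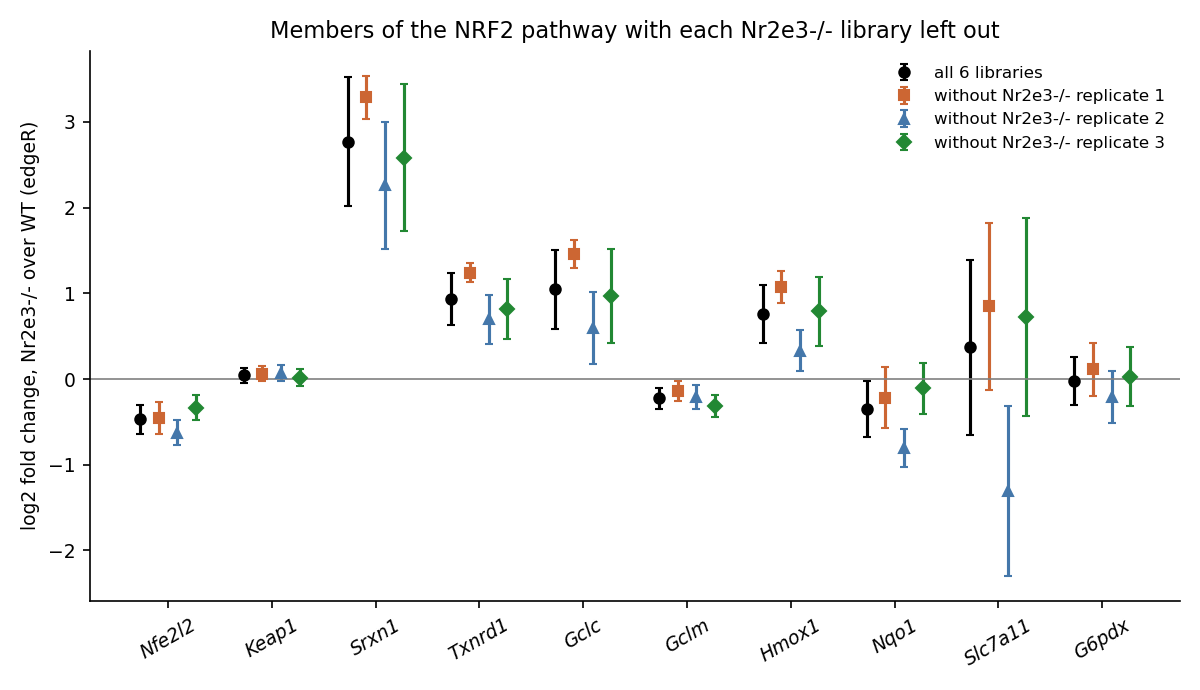
Log2 fold change of Nr2e3-/- over WT from edgeR (y axis) with its SE (bars) for each of the 10 genes, with all 6 libraries (black) and with each Nr2e3-/- library left out. Srxn1 ranges from 2.26 to 3.29 and Gclc from 0.60 to 1.46, while Slc7a11 changes sign when replicate 2 is left out.

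Nqo1, Slc7a11 and G6pdx had another pattern, in which WT replicate 1 and Nr2e3-/- replicate 2 were the 2 highest libraries. That was the case for 3 of the 10 genes and for 4.49% of all genes tested. Among the 73 other NRF2 pathway genes tested, described below, it was the case for 3 (Gsta1, Pgd and Cbr3). This pair of libraries was picked after the values were seen. Nqo1 encodes a quinone reductase that is a classical NRF2 target and lies on chromosome 8 from 107388225 to 107403206 (minus strand) with no overlapping gene. It was at 14.98, 10.995 and 10.8 CPM in WT and 7.94, 14.6 and 6.11 CPM in Nr2e3-/- tumors. The groups overlapped, with Nr2e3-/- replicates 1 and 3 below all WT libraries, and the log2 fold change was -0.35 (SE 0.32, adjusted p = 0.546 from edgeR). It was negative in every alternative, from -0.80 to -0.11.

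Slc7a11, the cystine importer xCT that supplies cysteine for glutathione, lies on chromosome 3 from 49892526 to 50443614 (minus strand), a locus that also overlaps 3 processed pseudogenes, the antisense gene Gm37854 and Gm37498. It had the fewest counts of the 10 genes, 9 to 196 per library. Its level was 5.57, 1.29 and 0.590 CPM in WT and 0.596, 7.28 and 1.35 CPM in Nr2e3-/- tumors. One library in each group was high and the groups overlapped throughout. The log2 fold change of 0.37 (SE 1.02, adjusted p = 0.852 from edgeR) ran from -1.30 to 1.74 across the alternatives.

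G6pdx, which encodes the first enzyme of the pentose phosphate pathway and so a main source of NADPH, lies on chromosome X from 74409483 to 74429194 (minus strand) and overlaps Ikbkg on the opposite strand, which had 1104 to 3297 counts per library. Whether counting used strand is not given in the sources used here, so reads of the overlap could fall to either gene. The retrocopy G6pd2 had 0 counts in every library. G6pdx was at 19.0, 9.91 and 10.8 CPM in WT and 10.7, 16.1 and 12.2 CPM in Nr2e3-/- tumors. The groups overlapped, with a log2 fold change of -0.02 (SE 0.28, adjusted p = 0.971 from edgeR).

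Across the 10 genes, Nr2e3-/- replicate 2 was the highest library for 5 (Gclc, Hmox1, Txnrd1, Srxn1 and Slc7a11), where it was the highest for 24% of all genes tested. Nr2e3-/- replicates 2 and 3 were the 2 highest libraries for 4 of the 10, and for 22.8% of all genes tested.

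Compared with each other per kb of exon, the genes spanned a wide range. In WT tumors the order of mean levels was Gclc (110 ± 4.37 CPM per kb, SD, n = 3), Txnrd1 (44.8 ± 2.06), Nfe2l2 (44.0 ± 4.25), Gclm (30.8 ± 2.38), Srxn1 (27.0 ± 7.27), Hmox1 (20.8 ± 1.02), Keap1 (12.7 ± 0.206), Nqo1 (7.89 ± 1.52), G6pdx (4.9999 ± 1.90) and Slc7a11 (0.252 ± 0.274). Among neighbours in this order, the WT libraries of Txnrd1 and Nfe2l2, Gclm and Srxn1, Srxn1 and Hmox1, and Nqo1 and G6pdx overlapped in range, and the other neighbours were separate. In Nr2e3-/- tumors Gclc was again highest (227 ± 136 CPM per kb, SD, n = 3), and Srxn1 took the next place (184 ± 139), ahead of Txnrd1 (85.5 ± 34.7), Hmox1 (35.03 ± 17.4), Nfe2l2 (31.7 ± 6.38) and Gclm (26.4 ± 3.16). These 6 genes overlapped in range with their neighbours, so their order was not separated by the spread between tumors. Keap1, Nqo1, G6pdx and Slc7a11 kept places 7, 8, 9 and 10. Exon lengths are those of the GENCODE basic transcripts, and isoform use in the tumors was not measured.

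**Figure D3:**
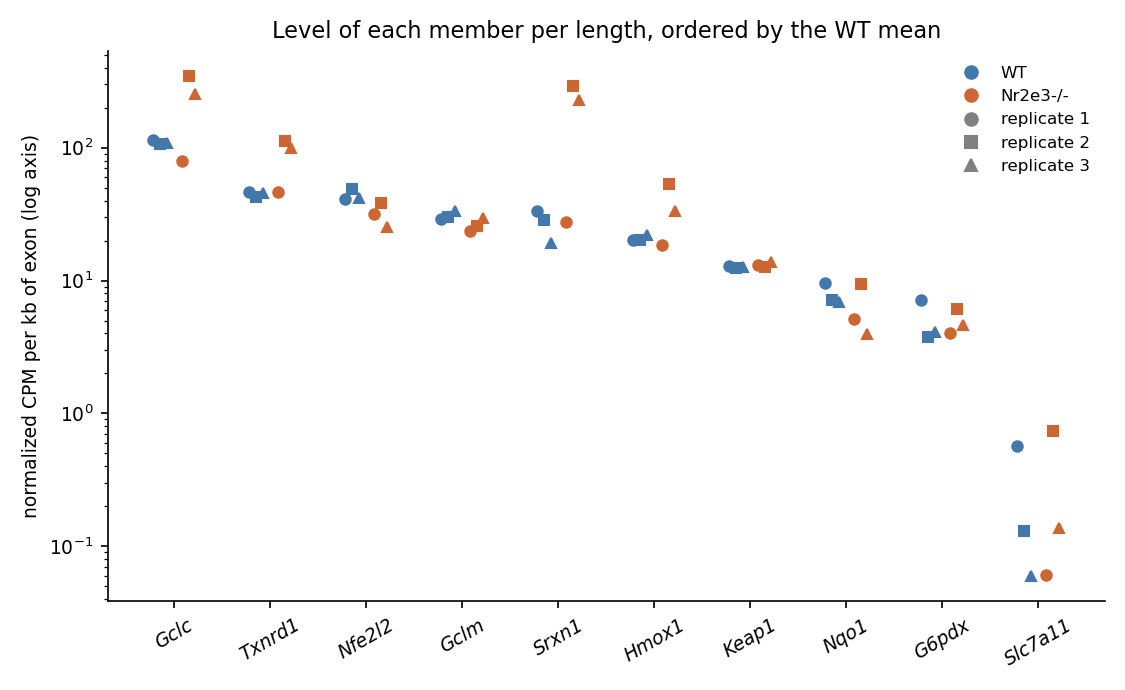
Normalized CPM per kb of exon (y axis, log scale) of the 10 genes in each library, WT in blue and Nr2e3-/- in orange, ordered by the WT mean. Srxn1 is the gene with the widest step between Nr2e3-/- replicate 1 (27.8) and replicates 2 and 3 (294 and 230).

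Markers of other cells moved with some of these values. In Nr2e3-/- replicate 2, which had the highest Hmox1, all 10 Kupffer cell and macrophage markers were at their highest of the 6 libraries. Their summed level was 824 CPM there, against 381 to 475 CPM in WT and 329 and 435 CPM in Nr2e3-/- replicates 1 and 3. Hmox1 in replicate 3 was above all WT libraries while the macrophage sum was inside the WT range. The neutrophil marker sum (S100a8, S100a9 and Retnlg) was 1.49 to 2.74 CPM in WT and 2.25, 21.9 and 13.1 CPM in Nr2e3-/- replicates 1 to 3, high in the same libraries as Srxn1. The bile duct marker sum was 57.3 to 119 CPM in WT and 69.1, 429 and 185 CPM in Nr2e3-/- replicates 1 to 3, and was carried by 1 gene, Spp1, at 46.0 to 107 CPM in WT and 56.3, 410 and 171 CPM in Nr2e3-/- replicates 1 to 3. Of the other bile duct markers, Epcam was at 1.80 to 2.37 CPM in WT and 1.79, 10.95 and 5.79 CPM in Nr2e3-/- replicates 1 to 3, Sox9 was at 6.38 to 8.999 CPM in WT and 7.94, 6.09 and 5.79 CPM, and Krt7, Krt19 and Cftr were under 2 CPM in every library. The red cell marker sum was 142 to 202 CPM in WT and 229 to 322 CPM in Nr2e3-/- tumors, with Slc4a1 at 0 counts in 1 library. Hba-a1 and Hba-a2 had identical values in every library (13.5 to 34.2 CPM) and both entered this sum, so the same reads may be counted in both. Stromal markers summed to 248 to 271 CPM in WT and to 279, 164 and 164 CPM in Nr2e3-/- replicates 1 to 3, and endothelial markers to 267 to 280 CPM and 227 to 283 CPM. The part of these cells in the values above was not tested, and in bulk tissue more cells of a type and more RNA per cell cannot be told apart.

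**Figure D4:**
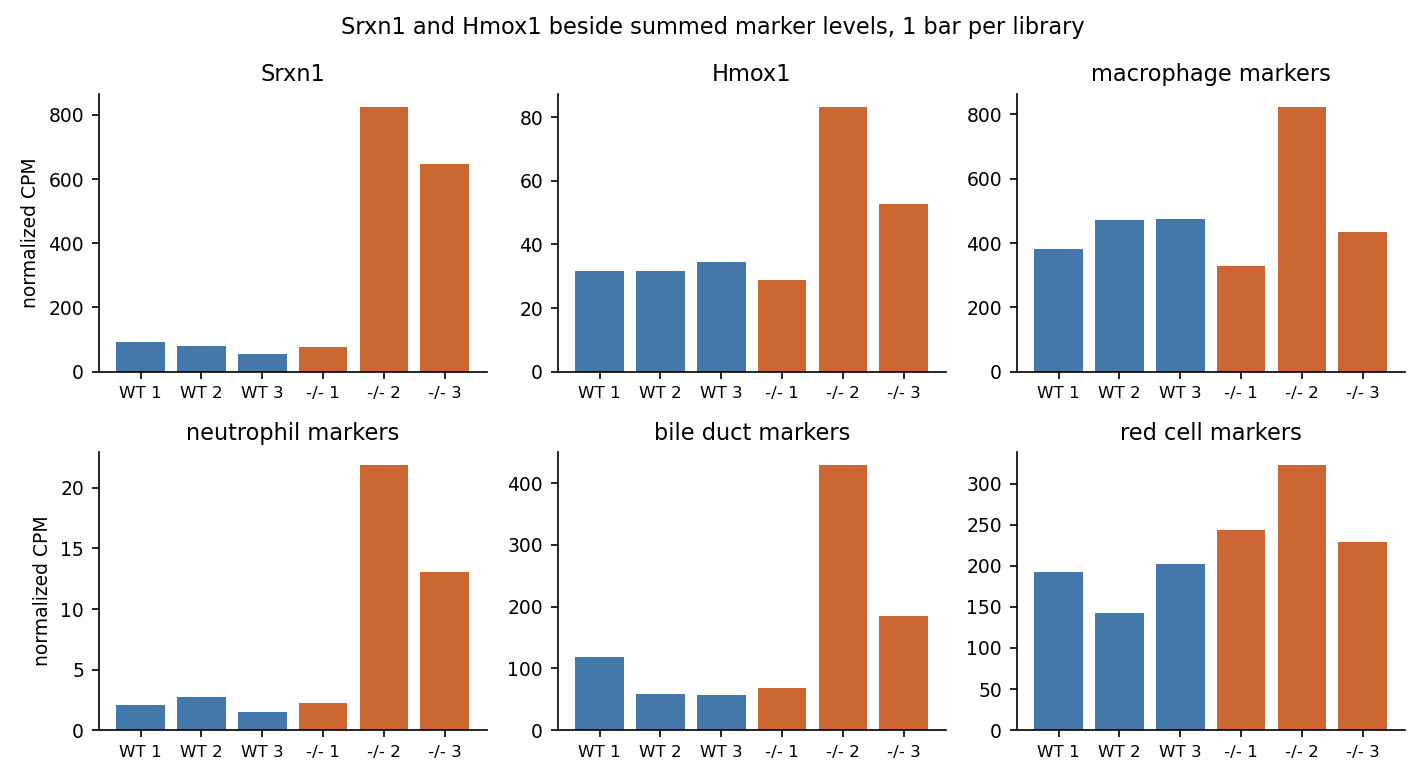
Normalized CPM (y axis) of Srxn1 and Hmox1 and the summed normalized CPM of 4 marker lists, with 1 bar per library, WT in blue and Nr2e3-/- in orange. The macrophage sum is high in Nr2e3-/- replicate 2 only (824 CPM), and the neutrophil sum and the bile duct sum, carried by Spp1, are high in replicates 2 and 3.

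The other genes of the NRF2 pathway were examined as 6 lists of 75 genes, of which 73 passed the filter on low counts. At an adjusted p-value under 0.05 edgeR called 0 of the 73. At an unadjusted p-value under 0.05, 6 were higher and 10 lower, or 21.9% of the 73. The share over all genes tested was 21.5% (11.8% higher, 9.72% lower), against which the lists below are also read. The median log2 fold change of the 73 was 0.01. Without Nr2e3-/- replicate 1, edgeR called 10 higher and 5 lower, where it called 12.2% of all genes as higher and 9.65% as lower.

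Among partners and turnover factors of NRF2 (13 tested, median log2 fold change 0.06), 1 was higher and 3 lower at an unadjusted p under 0.05. Sqstm1, the autophagy receptor p62 that competes for KEAP1 and is itself an NRF2 target, was at 437, 414 and 416 CPM in WT and 428, 731 and 699 CPM in Nr2e3-/- tumors. Like Srxn1, it was above WT in replicates 2 and 3 only, with a log2 fold change of 0.55 (SE 0.21, adjusted p = 0.191 from edgeR). Mafg, a small MAF partner of NRF2, had a log2 fold change of -0.42 (SE 0.15), and Btrc, the β-TrCP substrate adaptor of a KEAP1-independent route of NRF2 degradation, had -0.72 (SE 0.21), both with groups that did not overlap. All 3 were called by edgeR without Nr2e3-/- replicate 1, with adjusted p-values of 0.00696 for Sqstm1, 0.0159 for Mafg and 0.0045 for Btrc. Of the 13, edgeR then called 3 higher and 2 lower, where it called 12.2% and 9.65% of all genes. The others called were Bach2 (log2 fold change 0.99, adjusted p = 0.0327 from edgeR) and Gsk3b (0.50, adjusted p = 0.0410), both higher. They were named after their values were seen.

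In the glutathione list 16 of 18 genes were tested (median 0.07), 2 higher and 1 lower at an unadjusted p under 0.05. Gsr, glutathione reductase, was at 74.8, 74.6 and 79.2 CPM in WT and 80.0, 106 and 105 CPM in Nr2e3-/- tumors, giving a log2 fold change of 0.35 (SE 0.13, adjusted p = 0.195 from edgeR), and 0.48 without Nr2e3-/- replicate 1 (adjusted p = 0.0149 from edgeR). The glutathione transferases went both ways, with Gstm2 at 0.45 (SE 0.18) and Gsta2 at -0.95 (SE 0.34), and their families share similar sequences between which reads can be split. In the thioredoxin and peroxiredoxin list (12 tested, median 0.15), 2 were higher and 0 lower in edgeR at an unadjusted p under 0.05. Prdx1, a cytosolic peroxiredoxin that sulfiredoxin repairs, was at 432, 431 and 416 CPM in WT and 499, 535 and 587 CPM in Nr2e3-/- tumors, without overlap, a log2 fold change of 0.34 (SE 0.11, adjusted p = 0.161 from edgeR), and 0.40 without Nr2e3-/- replicate 1 (adjusted p = 0.0420 from edgeR). Prdx4, the peroxiredoxin of the endoplasmic reticulum, had 0.38 (SE 0.16) and Glrx, glutaredoxin, 0.70 (SE 0.27). Glrx was at 0.96 without Nr2e3-/- replicate 1 (adjusted p = 0.0103 from edgeR) and at 0.38 without replicate 2.

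The NADPH list (8 tested, median 0.03) had 1 gene at an unadjusted p under 0.05, H6pd, the glucose-6-phosphate dehydrogenase of the endoplasmic reticulum. H6pd was at 533, 513 and 518 CPM in WT and 594, 836 and 1003 CPM in Nr2e3-/- tumors, giving a log2 fold change of 0.64 (SE 0.19, adjusted p = 0.144 from edgeR) that was 0.83 without Nr2e3-/- replicate 1 (adjusted p = 0.00873 from edgeR). Its cytosolic counterpart G6pdx had -0.02. Taldo1, a transaldolase of the pentose phosphate pathway, had a log2 fold change of 0.17 (SE 0.11) and Idh1, the cytosolic isocitrate dehydrogenase, -0.23 (SE 0.14).

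In the detoxification and export list (15 tested, median log2 fold change -0.22), 0 were higher and 4 lower in edgeR at an unadjusted p under 0.05, where 11.8% of all genes tested were higher and 9.72% lower. Without Nr2e3-/- replicate 1 edgeR called 1 of the 15 higher and 3 lower, where it called 12.2% and 9.65% of all genes. The higher one was Ugdh, the UDP-glucose dehydrogenase that supplies glucuronidation (log2 fold change 0.66, adjusted p = 0.0409 from edgeR, against 0.47 and 0.262 with all 6 libraries), named after its values were seen. The 3 smallest p-values were those of the export pumps Abcc3, Abcc4 and Abcc2. Abcc3 was at 398, 391 and 416 CPM in WT and 278, 239 and 210 CPM in Nr2e3-/- tumors, giving a log2 fold change of -0.73 (SE 0.13, adjusted p = 0.0930 from edgeR). Abcc4 had a log2 fold change of -1.08 (SE 0.22, adjusted p = 0.0963 from edgeR) and Abcc2 of -0.62 (SE 0.20, adjusted p = 0.161 from edgeR). Without Nr2e3-/- replicate 1 all 3 were called by edgeR, Abcc3 at -0.83 (adjusted p = 0.00696), Abcc4 at -1.02 (adjusted p = 0.0324) and Abcc2 at -0.85 (adjusted p = 0.0110). These 3 pumps were lower in each Nr2e3-/- library, replicate 1 included, than in each WT library. Srxn1, Txnrd1, Gclc and Hmox1 differed from this, being high in replicates 2 and 3 only. Such full separation, with Nr2e3-/- lower, held for 7 of the 15 genes of the list and for 12.9% of all genes tested. Another pump of the list, Abcc1, went the other way, with a log2 fold change of 0.37 (SE 0.21) and groups that overlapped. It was named after its values were seen.

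Of the heme and iron list (9 tested, median -0.22), 0 were higher and 2 lower in edgeR at an unadjusted p under 0.05. Slc40a1, the iron exporter ferroportin, was at 185, 199 and 271 CPM in WT and 111, 150 and 124 CPM in Nr2e3-/- tumors, giving a log2 fold change of -0.77 (SE 0.18, adjusted p = 0.111 from edgeR). Blvrb, which encodes biliverdin reductase B, had -0.31 (SE 0.10), without overlap of the groups, and Abcb6, a porphyrin transporter, -0.23 (SE 0.12). The superoxide and peroxide enzymes that are not mainly under NRF2 (7 tested, median -0.03) had 0 genes called by edgeR and 0 at an unadjusted p under 0.05. Their smallest p-values were those of Sod3, the extracellular superoxide dismutase (log2 fold change -0.38, SE 0.21), the mitochondrial Sod2 (0.16, SE 0.11) and Gpx3, the secreted glutathione peroxidase (0.36, SE 0.33).

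**Figure D5:**
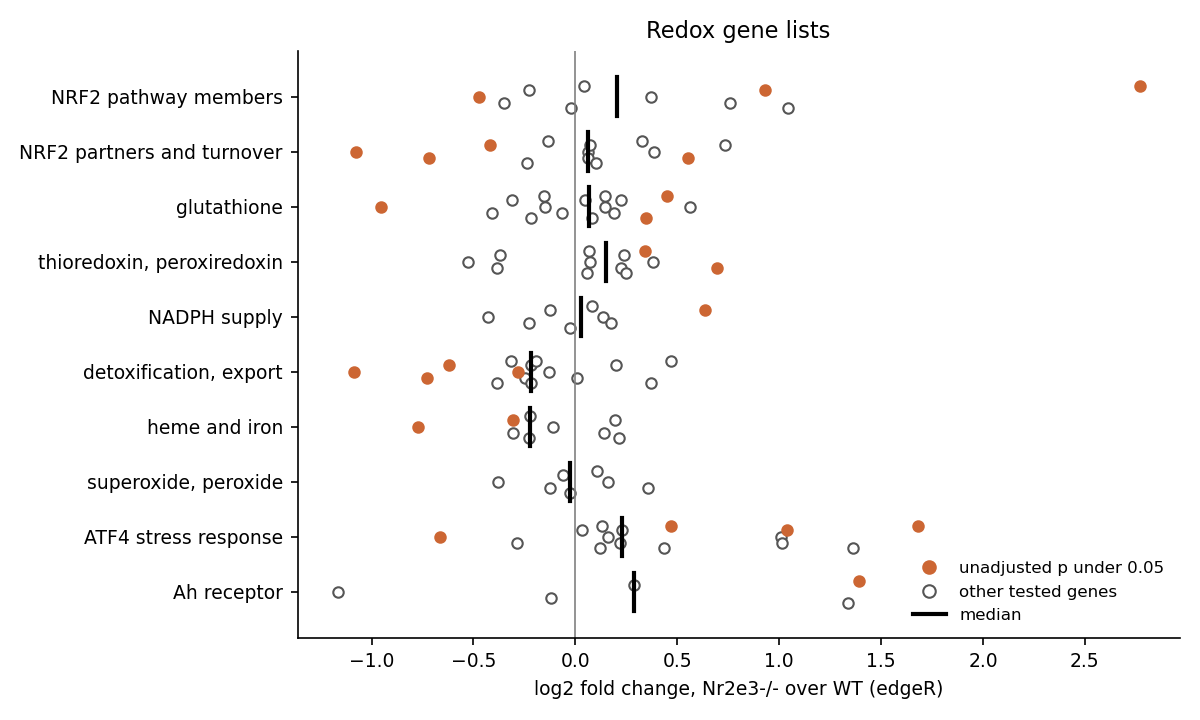
Log2 fold change of Nr2e3-/- over WT from edgeR (x axis) of each tested gene in 10 lists (rows), orange where the unadjusted p was under 0.05, with the list median as a bar. The 4 orange detoxification and export genes and both orange heme and iron genes lie below 0, and the medians of the 10 lists run from -0.22 to 0.29.

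The genes whose pattern over the 6 libraries was most like that of Nfe2l2 were sought by the root mean square difference of log2 CPM after centring each gene on its own mean. They were Cdk14 (0.0689), Rgl1 (0.0699) and Fcgr2b (0.0705). For Nqo1 they included Txndc16 (0.117) and Ptgfrn (0.138). For Srxn1, a gene chosen for this after its values were seen, they were 2010003K11Rik (0.199), Plscr1 (0.287) and S100a8 (0.325). 2010003K11Rik was at 19.9, 20.4 and 14.0 CPM in WT and 24.5, 180 and 184 CPM in Nr2e3-/- tumors, and S100a8 is one of the neutrophil markers above.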

How the data were processed

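RNA-seq was measured in 6 mouse liver tumor libraries, grouped as WT or Nr2e3-/- by their titles. The authors aligned single-end reads of TruSeq libraries to mm10 (GRCm38) with TopHat and counted them per gene with FeatureCounts, and the deposited values are raw counts per symbol. The counting annotation and strand setting are not given in the sources used here. The authors' normalized table and comparison table (log2 fold changes with p-values) were not used. Genes were filtered (filterByExpr, minimum count 10, minimum total 15), normalized by TMM and tested with edgeR 4.0.16 (quasi-likelihood F test, two-sided, Benjamini-Hochberg over all genes tested) in R 4.3.3. Log2 CPM used a prior count of 2. Alternatives used DESeq2 1.42.0 and limma 3.58.1, other normalizations and filters, a replicate block and leaving out each library. The pipeline was tested on simulated data. Positions and exon lengths came from GENCODE M21. Of the listed symbols, Adgre1 was found under its older symbol Emr1, and Tf and Ly6g were not found. The 10 genes and the lists were chosen with earlier results of these data known. Named from each other list were genes with an adjusted p under 0.05 and the 3 smallest p-values, and for Nfe2l2 and Nqo1 the 3 genes nearest in pattern, of which 1 is not reported here. Others are marked as chosen later.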

Additional observations from a re-analysis of the deposited data

How the results depend on the processing

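Genes with an adjusted p under 0.05 numbered 13 in all, 8 with upper quartile normalization, 1096 with DESeq2, 2360 with limma-voom, 70 with no filter beyond 1 count, 7 with at least 10 counts in every library, 0 with the replicate block in edgeR (2438 at an unadjusted p under 0.05), and 0 to 3022 with a library left out, the highest without Nr2e3-/- replicate 1. The counts at an unadjusted p under 0.05 were 2916, 4981 with limma-voom, and 1693 to 5220 with a library left out. Of the 10 genes of the NRF2 pathway, 0 were called in edgeR, 2 with DESeq2, 4 with limma-voom and 0 to 4 with a library left out. At an unadjusted p under 0.05 they numbered 3, against 5 with DESeq2, limma-voom or no filter, and 1 to 5 with a library left out (1 without WT replicate 2). Over the 10 genes the median log2 fold change of 0.21 moved by less than the spread between Nr2e3-/- libraries in every alternative, but its sign was not stable (-0.03 without WT replicate 3, -0.07 without Nr2e3-/- replicate 2). Its largest move was upward, to 0.53 without WT replicate 1. The Gclc to Gclm ratio was higher in Nr2e3-/- tumors with each library left out. Upper quartile normalization shifted the median of all genes to -0.08. The 46 genes chosen by the naming rule or as nearest to Srxn1 in pattern had 596 log2 fold changes under alternatives. Of these, 528 kept their direction and side of the threshold, 60 newly passed it and 8 reversed. Keap1 reversed with upper quartile normalization (-0.041). Slc7a11 reversed without WT replicate 3 (-0.11) and without Nr2e3-/- replicate 2 (-1.30), within a range of -1.30 to 1.74 with a library left out, and was not tested where at least 10 counts were asked of every library. G6pdx reversed with limma-voom (0.017), with the replicate block (0.02) and without WT replicate 1 (0.33), Nr2e3-/- replicate 1 (0.11) or Nr2e3-/- replicate 3 (0.03), within a range of -0.21 to 0.33 with a library left out. Deviations from the group means correlated at -0.077, 0.221 and 0.023 between libraries with the same replicate number. Between those with different numbers the correlations ran from -0.265 to 0.225. With 3 libraries per group this cannot decide whether the numbers pair libraries, and they were not taken to do so. With at most 196 counts in a library, Slc7a11 had the least precise values. The cause of these changes was not tested.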

Other observations

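Stress pathways that share targets with NRF2 were examined as further lists. In the list of ATF4, the transcription factor of the integrated stress response that also drives Slc7a11, 15 genes were tested. Of these, 13 had a log2 fold change above 0 (median 0.23, against 0.01 over all genes tested). The 2 below 0 were Trib3 (-0.66, SE 0.23), without overlap of the groups, and Ddit3 (-0.28, SE 0.19), and Atf4 itself had 0.13 (SE 0.23). These 3 were named after their values were seen. At an unadjusted p under 0.05, 3 were higher and 1, Trib3, lower, against 11.8% and 9.72% of all genes tested. EdgeR called 0 at an adjusted p under 0.05, and 6 as higher without Nr2e3-/- replicate 1, where it called 12.2% of all genes as higher. Chac1, a glutathione-degrading enzyme, was at 2.92, 3.86 and 3.33 CPM in WT and 2.98, 17.2 and 11.95 CPM in Nr2e3-/- tumors (log2 fold change 1.68, SE 0.55, adjusted p = 0.161 from edgeR, and 0.00298 without Nr2e3-/- replicate 1). Cebpb, a transcription factor, was at 80.3, 91.6 and 75.2 CPM in WT and 96.9, 227 and 184 CPM in Nr2e3-/- tumors, without overlap (log2 fold change 1.04, SE 0.29, adjusted p = 0.131 from edgeR, and 0.00329 without Nr2e3-/- replicate 1). Sesn2, a stress-induced regulator of mTORC1, had a log2 fold change of 0.47 (SE 0.16), and of 0.56 without that library (adjusted p = 0.0397 from edgeR).

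The Ah receptor shares Nqo1 with NRF2 as a target. In its list 5 of 6 genes were tested, with 1 higher at an unadjusted p under 0.05, against 11.8% of all genes tested, and 0 called by edgeR. Without Nr2e3-/- replicate 1, edgeR called 2 of the 5 as higher, where it called 12.2% of all genes as higher. Ahr itself was at 39.5, 46.5 and 45.7 CPM in WT and 64.2, 149 and 132 CPM in Nr2e3-/- tumors, without overlap (log2 fold change 1.39, SE 0.29, adjusted p = 0.0984 from edgeR, and 0.00138 without Nr2e3-/- replicate 1). Its target Tiparp had a log2 fold change of 1.34 (SE 0.58), which was 1.77 without Nr2e3-/- replicate 1 (adjusted p = 0.0250 from edgeR) but 0.34 without replicate 2, the library with the highest level. Its target Cyp1a1 had -1.17 (SE 0.58), which was -1.80 without Nr2e3-/- replicate 1 and -0.64 without replicate 2. Cyp1a1 had few counts, at 1.31, 1.42 and 1.94 CPM in WT and 1.26, 0.186 and 0.757 CPM in Nr2e3-/- tumors. Cyp1a2, a far more abundant target named after its values were seen, had 0.29 (SE 0.21), with groups that overlapped.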
